A study of Mus musculus with 8 samples.

Results

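Cell division genes were examined in tumor-associated macrophages (TAMs) as a list of 39 genes, 19 that act in S phase and 20 that act in mitosis. Each member was taken as the row of the deposited expression table that carries its gene symbol. All 39 were found, once each, among the 53247 genes of the table, and all 39 were among the 13850 genes with enough signal to be tested. The S phase members cover origin licensing and the replicative helicase (Mcm2 to Mcm7, Gins2, Cdc6 and Cdt1), the replication fork (Pcna, Pola1, Pole, Rfc4 and Uhrf1), nucleotide supply (Rrm1, Rrm2 and Tyms) and the E cyclins (Ccne1 and Ccne2). The mitotic members cover cyclins A2, B1 and B2 with Cdk1, the mitotic kinases and the spindle checkpoint (Aurka, Aurkb, Birc5, Bub1, Bub1b, Plk1 and Cdc20), the spindle (Kif11, Kif20a, Tpx2 and Nusap1), the centromere (Cenpa, Cenpe and Cenpf) and the chromosomes (Mki67 and Top2a).

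The samples came from C57/BL6 mice labelled WT or miR-21 null, with 4 samples of each genotype. All mice were 10 weeks old and had carried a subcutaneous tumor grown from LLC (the Lewis lung carcinoma cell line of the mouse) for 14 days. TAMs were isolated by flow sorting for CD45 and CD11b together with MHCII and F4/80. The miR-21 null mice carry a germline deletion, so that host cells other than macrophages lacked the miRNA too, whereas the implanted LLC cells were the same in both genotypes. Messenger RNA was sequenced, and the values are in counts per 1000000 reads (CPM). The comparison addresses whether host deletion of miR-21 changes the level of the cell division genes in TAMs.

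A dividing cell copies its DNA once and then separates the copies. In G1, D cyclins with Cdk4 and Cdk6, and then E cyclins with Cdk2, inactivate the RB family, which releases E2F factors to switch on replication genes. The genes of mitosis follow later, from promoters that carry CCAAT boxes and a short element called the cell cycle genes homology region (CHR), which are bound by NF-Y and by the MuvB complex with B-MYB and FOXM1. Macrophages of tissues and tumors can divide locally, and both programs are used as signs of dividing cells. In RNA from a sorted population, fewer dividing cells and less RNA per dividing cell cannot be told apart.

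The 2 programs are visible in the sequences upstream of the members. In the RefSeq promoter table (GRCm38.p6, 250 bases before to 50 after each annotated start), 31 of the 39 members were matched, with 33 promoters in all. Both strands were searched for the E2F motifs TTTCCCGC, TTTCGCGC, TTTGCCGC and TTTGGCGC, for the CHR motifs TTTGAA and TTTAAA, and for CCAAT. An E2F motif was present in 8 of 17 promoters of S phase members and in 1 of 16 promoters of mitotic members, that of Cdk1, against 2.265% of the 32851 promoters in the table. A CHR motif was present in 14 of 16 promoters of mitotic members and in 5 of 17 of S phase members, against 27.6% of all promoters. CCAAT was found in 14 of 16 and 12 of 17 promoters, against 37.4%. These are matches of letters in a window and do not show binding.

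The 250 bases before the start are given for 6 members that span both programs: Mcm6, a helicase subunit with E2F motifs, Pcna, the sliding clamp of the DNA polymerases, the proliferation markers Mki67 and Top2a, the spindle motor Kif11, and Cdk1, whose promoter holds both kinds of motif. Capitals mark the E2F, CHR and CCAAT motifs on either strand, and neighbouring E2F motifs can overlap. The windows are chr1:128359706-128359955 on the minus strand for Mcm6, chr2:132253181-132253430 on the minus strand for Pcna, chr7:135716380-135716629 on the minus strand for Mki67, chr11:99024190-99024439 on the minus strand for Top2a, chr19:37376132-37376381 on the plus strand for Kif11 and chr10:69352913-69353162 on the minus strand for Cdk1.
Mcm6: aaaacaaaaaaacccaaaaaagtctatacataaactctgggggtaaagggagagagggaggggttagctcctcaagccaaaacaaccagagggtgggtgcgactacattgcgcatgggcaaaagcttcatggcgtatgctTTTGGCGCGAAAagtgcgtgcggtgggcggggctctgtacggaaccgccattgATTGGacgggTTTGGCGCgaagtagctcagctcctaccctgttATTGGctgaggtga
Pcna: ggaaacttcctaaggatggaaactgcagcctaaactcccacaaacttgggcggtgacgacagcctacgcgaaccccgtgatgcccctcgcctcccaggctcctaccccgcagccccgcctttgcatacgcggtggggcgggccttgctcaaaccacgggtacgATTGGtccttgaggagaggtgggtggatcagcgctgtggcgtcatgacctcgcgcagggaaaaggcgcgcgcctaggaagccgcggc
Mki67: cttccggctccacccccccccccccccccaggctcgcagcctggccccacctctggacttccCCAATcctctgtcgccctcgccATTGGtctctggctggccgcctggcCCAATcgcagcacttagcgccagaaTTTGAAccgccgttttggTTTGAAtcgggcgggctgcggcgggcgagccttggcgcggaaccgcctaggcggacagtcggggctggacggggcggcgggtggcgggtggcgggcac
Top2a: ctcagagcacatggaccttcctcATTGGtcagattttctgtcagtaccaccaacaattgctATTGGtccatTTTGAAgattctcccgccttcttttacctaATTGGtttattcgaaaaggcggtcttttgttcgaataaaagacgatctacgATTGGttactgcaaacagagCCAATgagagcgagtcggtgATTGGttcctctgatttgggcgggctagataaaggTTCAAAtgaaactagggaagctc
Kif11: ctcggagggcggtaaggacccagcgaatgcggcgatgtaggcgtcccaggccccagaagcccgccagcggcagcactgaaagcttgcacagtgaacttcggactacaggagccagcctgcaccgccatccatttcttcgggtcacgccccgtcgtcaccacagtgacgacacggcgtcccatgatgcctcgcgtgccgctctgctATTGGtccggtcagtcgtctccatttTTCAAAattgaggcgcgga
Cdk1: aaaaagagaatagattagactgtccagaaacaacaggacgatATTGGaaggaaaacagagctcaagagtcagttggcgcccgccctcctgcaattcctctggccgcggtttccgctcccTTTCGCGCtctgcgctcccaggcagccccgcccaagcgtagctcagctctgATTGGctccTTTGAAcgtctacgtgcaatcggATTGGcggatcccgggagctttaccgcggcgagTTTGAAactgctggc

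**Figure D1:**
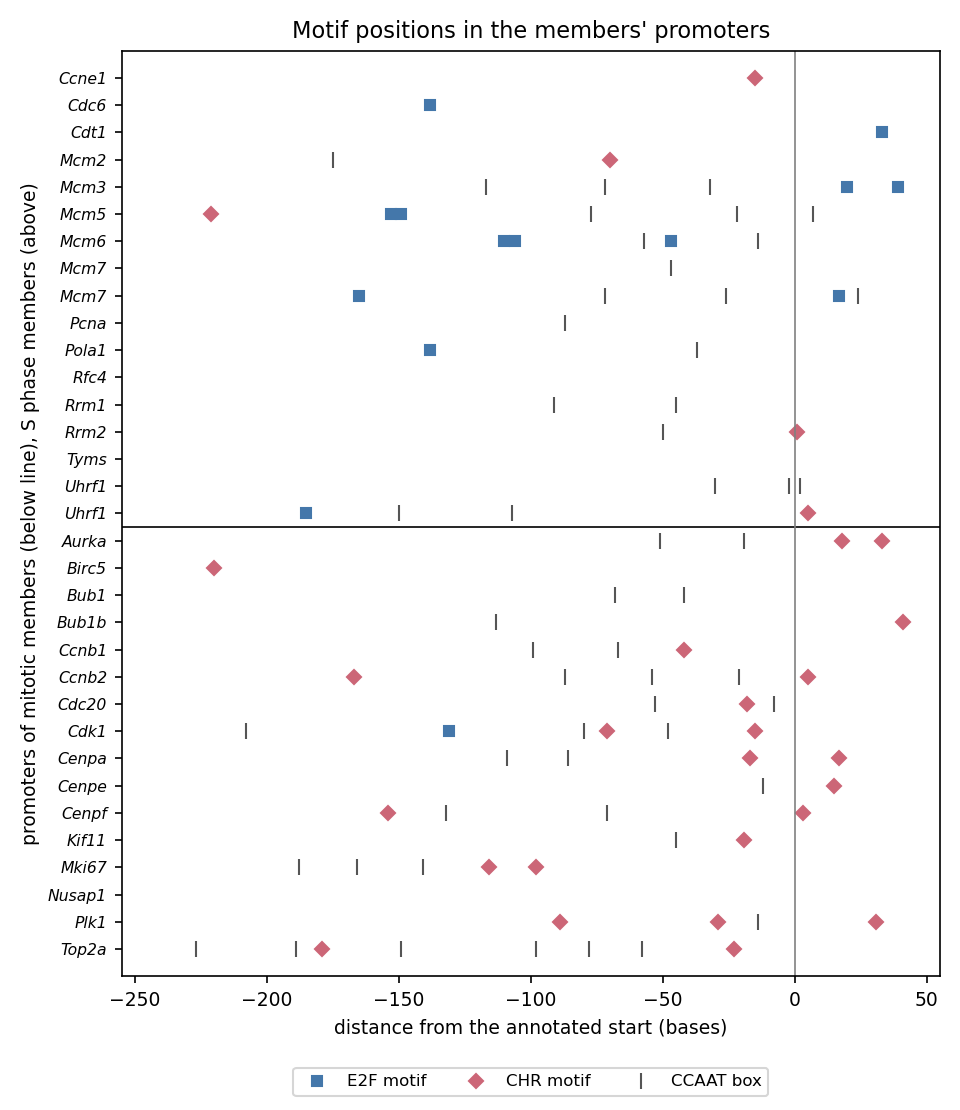
Positions of E2F, CHR and CCAAT motifs (symbols) in the 33 promoters of 31 members, plotted as distance in bases from the annotated start, with S phase members above the line and mitotic members below it. E2F motifs lie in 8 of 17 promoters above the line and in 1 of 16 below it, and CHR motifs in 5 of 17 above and 14 of 16 below.

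The miRNA deleted in the host is mmu-miR-21a-5p, read from GRCm38.p6 chr11:86584120-86584141 on the minus strand. Its seed, bases 2 to 8, is in capitals.
mmu-miR-21a-5p: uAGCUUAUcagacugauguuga
A match of 7 bases to this seed, either to bases 2 to 8 or to bases 2 to 7 followed by an A, was found in the annotated 3′ UTRs of 3 of the 39 members, all of S phase, and of none of the 20 mitotic members. Among all 11314 tested genes with a 3′ UTR of at least 30 bases, 11.3% had such a match. The median 3′ UTR of these genes was 1028 bases, against 688 for S phase and 601.5 for mitotic members, and the shares were not corrected for length. The sites, on GRCm38 with the match in capitals and up to 30 bases shown, are in Pcna (chr2:132249424-132249430, minus strand), Tyms (chr5:30059594-30059600, minus strand) and Ccne2 (chr4:11203400-11203406, plus strand).
Pcna: ttgcttaaagaATAAGCTccaaagtaaaaa
Tyms: attaatattaaATAAGCTggactgaggcat
Ccne2: agccaacaattTAAGCTAtagcagttgttt
The values of these 3 genes are given with their groups of genes.

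The worth of 1 read, seen in the lowest values of each library, gave a depth of 20.2 to 29.9 for WT and 26.0 to 33.4 for miR-21 null libraries, in units of 1000000 reads, and the member with the fewest reads, Ccne2, had at least 114 in every sample. Mir21a, the deleted gene, was listed at 0.0001 CPM, the offset the authors added to every value, in all 8 samples of both genotypes, so that it did not check the labels. Vmp1, whose annotated span on chromosome 11 includes Mir21a, stood at 115 to 133 CPM in WT and 373 to 426 CPM in miR-21 null samples, so that the samples divided as labelled at this locus. The 15 macrophage markers were all detected in every sample and summed to 17371 to 19707.5 CPM in WT and 18969 to 21568 CPM in miR-21 null TAMs, whereas the 8 epithelial tumor cell markers, 4 of them over 3 reads in every sample and Cldn4 and Krt14 in none, summed to 19.9 to 26.3 CPM in WT and 13.7 to 18.4 CPM in miR-21 null samples. Single macrophage markers were called in both directions, as given below. No LLC cells are among the 8 samples, so these sums do not give the amount of LLC RNA carried over. Across all tested genes the median log2 fold change, miR-21 null over WT, was -0.10, and it was -0.0076 after quantile normalization and -0.0030 when the samples were rescaled by the median of ratios. The title of miR-21 null replicate 1 joins a pair of sample numbers, and the labels do not say whether it is a pool of mice. The labels call the samples biological replicates without saying which mice they came from.

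No member passed the threshold of an adjusted p at or under 0.005 with a fold over 1.5 (limma on log2(CPM + 1), Benjamini-Hochberg over all tested genes), where 2.89% of the tested genes were past it as higher and 4.23% as lower in miR-21 null TAMs. At an adjusted p at or under 0.05 with no fold limit, Ccne2 was called higher and no member was called lower, against 9.49% of the tested genes called higher and 26.5% called lower. At an unadjusted p under 0.05 the count was 1 higher, Ccne2, and 3 lower, Mcm2, Gins2 and Cenpa, against 12.3% of the tested genes higher and 34.1% lower at the same limit. In no member did the 4 WT and the 4 miR-21 null values fail to overlap, whereas they did not overlap in 35.1% of the tested genes.

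Scored as the mean of log2(CPM + 1), the S phase members stood at 5.06, 5.06, 5.12 and 5.33 in WT (replicates 1 to 4, in that order here and throughout) and at 4.74, 5.18, 5.21 and 5.32 in miR-21 null TAMs. The genotypes overlapped, with means of 5.15 ± 0.13 in WT and 5.11 ± 0.26 in miR-21 null TAMs (SD, n = 4). The mitotic score was 5.01, 4.996, 4.94 and 5.36 in WT and 4.69, 5.35, 5.31 and 5.47 in miR-21 null samples, with means of 5.08 ± 0.19 and 5.21 ± 0.35. The lowest value of both scores was that of miR-21 null 1, and the highest WT value of both was that of WT 4. Differences in score of -0.033 (S phase) and 0.13 (mitotic) were smaller than the SD of either genotype, but 1 sample carried most of each SD. Without miR-21 null 1 the SD of that genotype was 0.075 (S phase) and 0.081 (mitotic) and the differences were 0.092 and 0.30. Without WT 4 the SD of WT was 0.035 and 0.037 and the differences were 0.030 and 0.22, so that the S phase difference changed its sign without either sample. Rescaling by the median of ratios gave 0.075 and 0.24, which also turned the sign for S phase. In each of these 3 settings the mitotic difference was above 0.19, the SD of WT over all 4 samples. With each of the 8 samples left out in turn it ranged from 0.041 to 0.30, so that other omissions brought it below that SD. The members were picked with results of these data known, and no test was made of the scores.

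**Figure D2:**
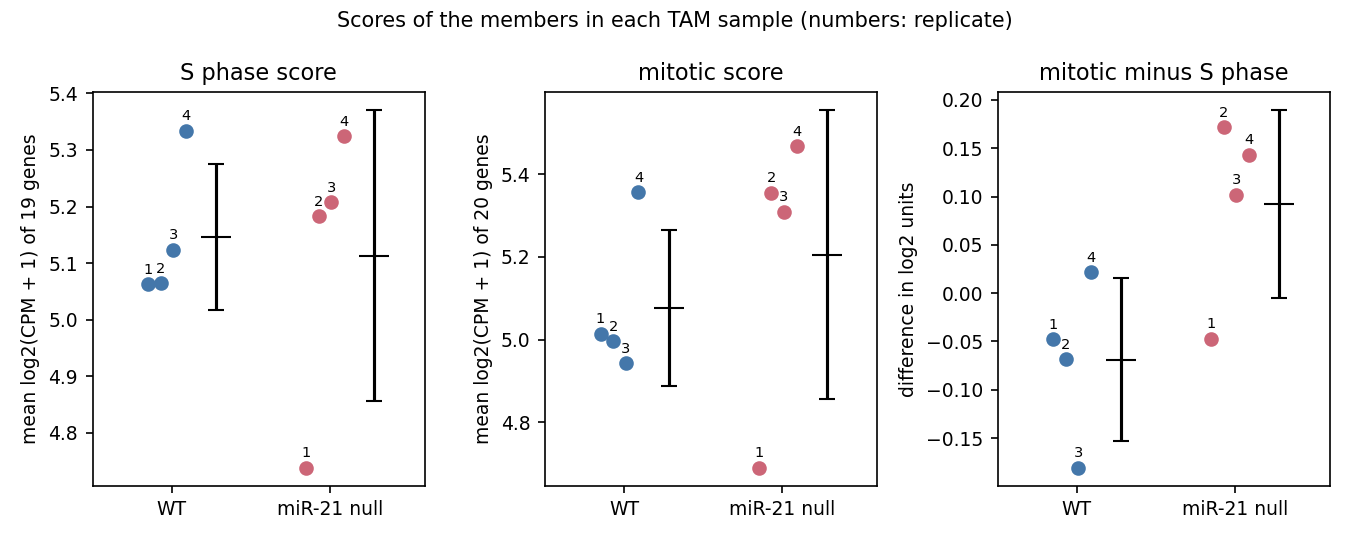
S phase score, mitotic score and their difference (log2 units) in each TAM sample, with the replicate number beside each point and the mean ± SD of 4 samples as a bar. miR-21 null 1 is lowest in both scores (4.74 and 4.69), and WT 4 is the highest WT sample in both (5.33 and 5.36).

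Within a sample the mitotic score was set against the S phase score. The difference, mitotic minus S phase, was -0.047, -0.069, -0.18 and 0.022 in WT and -0.047, 0.17, 0.10 and 0.14 in miR-21 null TAMs. The means were -0.069 ± 0.084 in WT and 0.092 ± 0.097 in miR-21 null TAMs (SD, n = 4). The 3 miR-21 null samples 2 to 4 lay above all 4 WT samples, and miR-21 null 1 lay within the WT range. In plain levels, the 20 mitotic members summed to 849 to 1145 CPM in WT and 706 to 1302 CPM in miR-21 null samples, and the 19 S phase members to 821 to 1000.3 CPM and 646 to 976 CPM.

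The replicates of a genotype differed widely in the members. The median coefficient of variation of the members was 13.0% in WT and 21.01% in miR-21 null TAMs, against 9.67% and 8.96% for all tested genes. miR-21 null 1 was the lowest miR-21 null sample in 39 of 39 members, against 35.2% of all tested genes, and the lowest of all 8 samples in 35 of 39, against 24.1%. WT 4 was the highest WT sample in 37 of 39 members, against 25.1% of all tested genes. miR-21 null 1 differed from the mean of the other miR-21 null samples by a median of -0.61 on the log2 scale over the members, with a range from -0.83 to -0.18, and by -0.024 over all tested genes. Without that sample the members' coefficient of variation in miR-21 null TAMs was 7.27%, close to the 7.52% of all tested genes.

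**Figure D3:**
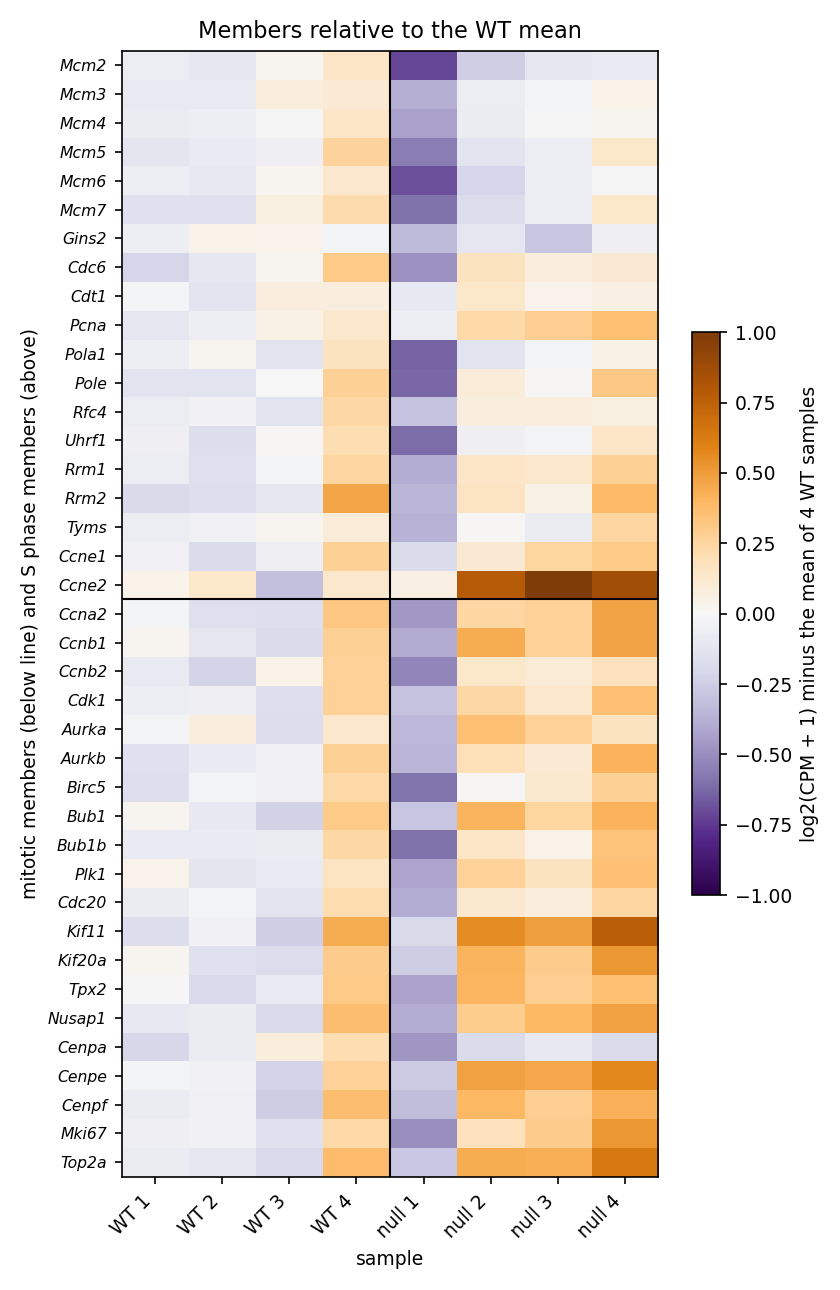
log2(CPM + 1) of each of the 39 members in each sample, minus the mean of the 4 WT samples (color, cut at -1 and 1), with S phase members above the horizontal line and mitotic members below it. The column of miR-21 null 1 is lowest of all 8 samples in 35 of 39 members, and that of WT 4 is the highest WT column in 37 of 39.

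Markers of other cells were summed in the same samples. The 12 T cell markers, all detected in every sample, summed to 56.5 CPM in miR-21 null 1, to 15.2 to 31.3 CPM in the other miR-21 null samples and to 32.8 to 51.6 CPM in WT. Without Cd4, a step chosen after its values were seen, the other 11 summed to 53.1 CPM in miR-21 null 1, to 14.3 to 29.6 CPM in the other miR-21 null samples and to 21.6 to 26.9 CPM in WT, so that miR-21 null 1 stood above all 7 other samples on both sums. Cd4 was called lower, at 5.93 to 29.99 CPM in WT and 0.845 to 3.396 CPM in miR-21 null samples (-2.35, adjusted p = 0.00206), as was Cd28 (-0.44), whereas Cd8a was called higher, at 1.32 to 2.19 CPM and 2.80 to 11.6 CPM (1.28, adjusted p = 0.00804), and so were Prf1 of the NK cell list (1.16, adjusted p = 0.0261) and Clec9a of the dendritic cell list (1.26, adjusted p = 0.00532), in which Cd209a was called lower (-1.28). The genotypes overlapped in Prf1, and its call was lost without miR-21 null 1 (limma adjusted p = 0.0672). The 6 NK cell markers, 3 of them over 3 reads in every sample, summed to 18.3 CPM in miR-21 null 1, the highest of all 8 samples, and to 6.84 to 13.3 CPM in the other miR-21 null samples, with miR-21 null 4 highest of these. In WT they summed to 10.99 CPM in WT 4 and 3.43 to 5.16 CPM in the others. Prf1 alone stood at 14.7 CPM in miR-21 null 1, 12.2 CPM in miR-21 null 4 and 7.01 CPM in WT 4. Ncr1, Klrb1c, Eomes and Klra8 reached at most 0.641 CPM in any sample, so that the sum mostly follows Prf1. The 7 monocyte markers summed to 1109.6 CPM in miR-21 null 1, against 683 to 845 CPM in the other miR-21 null samples and 776 to 1233 CPM in WT. The macrophage sum was highest in miR-21 null 1, at 21568 CPM, and lowest in WT 4, at 17371 CPM. Lyz2 of that list had the same extremes, at 7295 CPM and 3367 CPM. Adgre1 (-0.38, limma adjusted p = 0.00140) and Csf1r (-0.48, 0.00538) of the list were called lower. Fcgr1 (0.75, 0.000561), past the stricter threshold, and Aif1 (0.29, 0.0125) were called higher. The other markers of the list were not called, so that the sum does not describe each marker. In WT 4 the 8 fibroblast markers summed to 148 CPM, against 70.5 to 101 CPM in the other WT samples and 18.8 to 51.0 CPM in miR-21 null samples. The 8 dendritic cell markers, 6 of them over 3 reads in every sample, summed to 39.1 CPM in miR-21 null 4, the sample with the highest mitotic score, to 15.8 to 23.1 CPM in the other miR-21 null samples and to 12.3 to 21.1 CPM in WT. Neutrophil markers (7 of 8 over 3 reads in every sample) summed to 822 to 1236 CPM in WT and 607 to 789 CPM in miR-21 null samples, and B cell markers (4 of 6) to 40.6 to 59.6 CPM and 26.0 to 38.8 CPM, so that both divided the genotypes without overlap, as the fibroblast and the epithelial tumor cell markers did, all of them with the lower sums in miR-21 null samples. Among the tested genes of the neutrophil and fibroblast lists, Ly6g (0.31, limma adjusted p = 0.270) and Thy1 (0.38, 0.274) alone were above 0, without a call. The part of these cells in the members' levels was not tested.

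Levels per length were compared on CPM per kilobase of exon, taken from the GENCODE vM21 annotation. In WT TAMs Pcna was the highest member at 60.0 CPM per kilobase, followed by Cenpa at 28.8, Top2a at 28.7, Mcm3 at 28.6 and Mki67 at 27.1. The lowest were Ccne2 at 2.28, Cenpf at 2.79 and Cdc6 at 2.83. The bottom of the order thus held genes of both programs, a cyclin, a kinetochore gene and a loader, with Ccne1 higher at 4.13.

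Of the 9 genes of licensing and the helicase, 8 had a log2 fold change below 0, with a median of -0.15, against 66.8% of the tested genes and their median of -0.10. Without miR-21 null 1 the median of the group was -0.025, and Mcm3 and Cdc6 turned above 0 under rescaling by the median of ratios, where 50.4% of the tested genes were below 0. None of the 9 was called. The MCM proteins form the ring-shaped helicase that unwinds DNA ahead of the fork. Mcm2 stood at 55.4, 53.9, 59.0 and 64.1 CPM in WT and at 34.9, 48.7, 53.6 and 54.6 CPM in miR-21 null samples, a log2 fold change of -0.29 ± 0.13 (SE, adjusted p = 0.101). In Mcm2, 3 of the 4 miR-21 null samples lay below every WT sample, and miR-21 null 4 was above WT 2 alone. Mcm3 to Mcm7 had log2 fold changes between -0.24 and -0.11, with adjusted p values of 0.170 to 0.4075. Gins2, a subunit of the GINS complex that joins the helicase, stood at 18.4, 19.8, 19.7 and 18.8 CPM in WT and at 15.03, 17.6, 15.6 and 18.4 CPM in miR-21 null samples, a difference of -0.19 ± 0.08 (adjusted p = 0.0702). Cdt1, which loads the helicase on origins, had the highest value of the group, 0.03 ± 0.07 (adjusted p = 0.734), at 38.9, 35.8, 41.4 and 41.5 CPM in WT and 36.6, 43.4, 40.4 and 40.9 CPM in miR-21 null samples. Cdc6, the other loader, was at -0.03 ± 0.16.

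At the replication fork, Pcna stood apart from the other members of its group. It was at 83.9, 87.04, 94.0 and 99.4 CPM in WT and at 86.6, 107, 111 and 117 CPM in miR-21 null samples, a log2 fold change of 0.20 ± 0.09 (SE, adjusted p = 0.117). Samples 2 to 4 of the miR-21 null group were above every WT sample, and miR-21 null 1 was among the lower WT values. Pola1, the catalytic subunit of the primase polymerase, had the lowest value, -0.19 ± 0.14 (adjusted p = 0.310), at 33.6, 35.6, 31.8 and 39.4 CPM in WT and 22.2, 31.7, 34.3 and 36.2 CPM in miR-21 null samples. Pole, Rfc4 and Uhrf1, which are the leading-strand polymerase, a clamp loader subunit and a factor that maintains DNA methylation behind the fork, lay between -0.14 and -0.02 with adjusted p values of 0.4999 to 0.893. Pcna is another of the members with a seed match.

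None of the 3 enzymes of nucleotide supply was called. Rrm1 and Rrm2 are the subunits of ribonucleotide reductase and Tyms makes thymidylate. Rrm2 stood at 33.3, 34.2, 35.3 and 53.0 CPM in WT and at 29.8, 42.8, 39.6 and 50.4 CPM in miR-21 null samples (log2 fold change 0.06 ± 0.17, adjusted p = 0.799). WT 4 was the highest of all 8 samples for Rrm2. Tyms stood at 10.2, 10.4, 10.9 and 11.5 CPM in WT and at 8.14, 10.9, 10.2 and 12.9 CPM in miR-21 null samples (-0.05 ± 0.12, adjusted p = 0.785). Rrm1 was at 0.04 ± 0.14 (adjusted p = 0.834).

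Ccne2, cyclin E2, which carries 1 of the seed matches shown above, was the member with the largest difference. It stood at 7.47, 8.08, 5.67 and 7.99 CPM in WT samples and at 7.57, 13.2, 15.7 and 14.0 CPM in miR-21 null samples. Samples 2 to 4 of the miR-21 null group were above every WT sample, whereas miR-21 null 1 lay within the WT range. The mean rose from 7.30 ± 1.12 to 12.6 ± 3.52 CPM (SD, n = 4), a log2 fold change of 0.68 ± 0.19 (SE, limma adjusted p = 0.0212). The call was lost without WT 3 and without miR-21 null 2, 3 or 4 (adjusted p between 0.0531 and 0.05998) and when low genes were not filtered out (0.0635), and without miR-21 null 1 the difference was 0.89 ± 0.12 (adjusted p = 0.00127). Ccne1, cyclin E1, stood at 7.92, 7.10, 7.87 and 10.1 CPM in WT and at 7.09, 8.93, 9.94 and 10.4 CPM in miR-21 null samples (0.12 ± 0.13, adjusted p = 0.492).

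The mitotic members had a median log2 fold change of 0.13, and 16 of 20 were above 0, against 33.2% of the tested genes, with Ccnb2, Birc5, Bub1b and Cenpa below it, of which Cenpa alone stayed below under rescaling by the median of ratios, where 49.6% of the tested genes were above 0. None was called in either direction. Among cyclins A2, B1 and B2 and Cdk1, which drive entry into mitosis, Ccnb1 was highest, at 16.7, 15.2, 14.4 and 20.2 CPM in WT and 12.3, 22.8, 20.1 and 23.3 CPM in miR-21 null samples (0.20 ± 0.18, adjusted p = 0.424). Ccnb2 was lowest of these, at 18.1, 16.3, 19.8 and 23.4 CPM and 13.1, 21.3, 20.7 and 21.8 CPM (-0.03 ± 0.16, adjusted p = 0.901). In both genes miR-21 null 1 was the lowest of the 8 samples and WT 4 the highest WT sample. Ccna2 was at 0.13 ± 0.19 and Cdk1 at 0.10 ± 0.14.

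The kinases and checkpoint genes lay between -0.04 and 0.20, with adjusted p values of 0.366 to 0.946. Bub1, a checkpoint kinase at kinetochores, stood at 21.8, 20.01, 18.2 and 26.8 CPM in WT and at 17.5, 28.9, 25.7 and 29.0 CPM in miR-21 null samples (0.20 ± 0.16). Birc5, survivin, a subunit of the chromosomal passenger complex with Aurkb, stood at 19.9, 21.9, 21.6 and 26.4 CPM and at 14.5, 22.5, 24.3 and 27.3 CPM (-0.04 ± 0.17). The genotypes overlapped in both, and miR-21 null 1 was again the lowest sample. Aurka at 0.11, Aurkb at 0.09, Plk1 at 0.10, Cdc20 at 0.02 and Bub1b at -0.02 lay between them.

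All 4 spindle genes were above 0. Kif11, the motor that pushes the spindle poles apart, stood at 32.2, 35.4, 30.4 and 49.6 CPM in WT and at 31.7, 53.7, 51.1 and 62.0 CPM in miR-21 null samples, the largest difference of the mitotic members (0.40 ± 0.20, adjusted p = 0.146). Samples 2 to 4 of the miR-21 null group were above WT 4, the highest WT sample, and miR-21 null 1 was above WT 3 alone. Tpx2, which activates Aurora A on the spindle, had the smallest value of this group, at 39.2, 34.2, 37.0 and 49.1 CPM and 29.1, 52.6, 48.5 and 51.1 CPM (0.16 ± 0.18, adjusted p = 0.524). Kif20a, a motor of cytokinesis, was at 0.25 ± 0.16 and Nusap1, a microtubule-binding protein, at 0.19 ± 0.19.

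The centromere genes did not share a direction. Cenpe, a kinetochore motor, stood at 39.6, 39.3, 34.3 and 48.7 CPM in WT and at 33.4, 56.3, 55.6 and 60.2 CPM in miR-21 null samples (0.31 ± 0.17, adjusted p = 0.184). Cenpa, the histone H3 variant that marks centromeres, stood at 40.6, 44.5, 49.7 and 54.2 CPM and at 33.6, 41.3, 43.9 and 41.3 CPM (-0.23 ± 0.10, adjusted p = 0.104). For Cenpa all 4 miR-21 null samples lay below WT 2, 3 and 4, and 3 of them were above WT 1. Cenpf, a large kinetochore protein, was at 0.20 ± 0.17 (adjusted p = 0.407).

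Mki67, which encodes the Ki-67 antigen at the surface of mitotic chromosomes, had the most reads of the list. It stood at 262, 266, 246 and 318 CPM in WT and at 192, 308, 334 and 389.9 CPM in miR-21 null samples, with means of 273 ± 31.2 and 306 ± 83.3 (SD, n = 4) and a log2 fold change of 0.13 ± 0.18 (SE, adjusted p = 0.627). The miR-21 null samples included both the lowest and the 2 highest values of the 8. Top2a, the topoisomerase that untangles sister chromatids, stood at 141, 138, 129 and 192 CPM and at 122, 202, 199.97 and 230.3 CPM (0.31 ± 0.19, adjusted p = 0.227). Here miR-21 null samples 2 to 4 were above every WT sample and miR-21 null 1 was below them all.

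The members were also fitted without miR-21 null 1, the sample that stood apart. Then 12 of 39 were called higher at an adjusted p at or under 0.05 and none lower, against 9.34% of the tested genes called higher and 22.7% called lower in the same fit. These were Pcna and Ccne2 of S phase and 10 of the 20 mitotic members, Ccnb1, Bub1, Plk1, Kif11, Kif20a, Tpx2, Nusap1, Cenpe, Mki67 and Top2a. Ccne2 alone then passed the stricter threshold, which 2.48% of the tested genes passed as higher. The largest of the mitotic values were those of Kif11 (0.60 ± 0.15, adjusted p = 0.0174), Top2a (0.50 ± 0.13, 0.0175) and Cenpe (0.50 ± 0.10, 0.00701), and Mki67 was at 0.33 ± 0.10 (0.0389). The median of the mitotic members was 0.33 and that of the S phase members 0.060, with none of the 9 licensing and helicase genes called. The 3 remaining miR-21 null samples were above all 4 WT samples in 8 of 39 members, against 12.1% of the tested genes. The sample was set aside after its values were seen as one of the planned omissions of each sample in turn, and no label gives a reason to leave it out. Over these omissions the number of members called at an adjusted p at or under 0.05 ranged from 0 to 12, with 12 from this one.

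**Figure D4:**
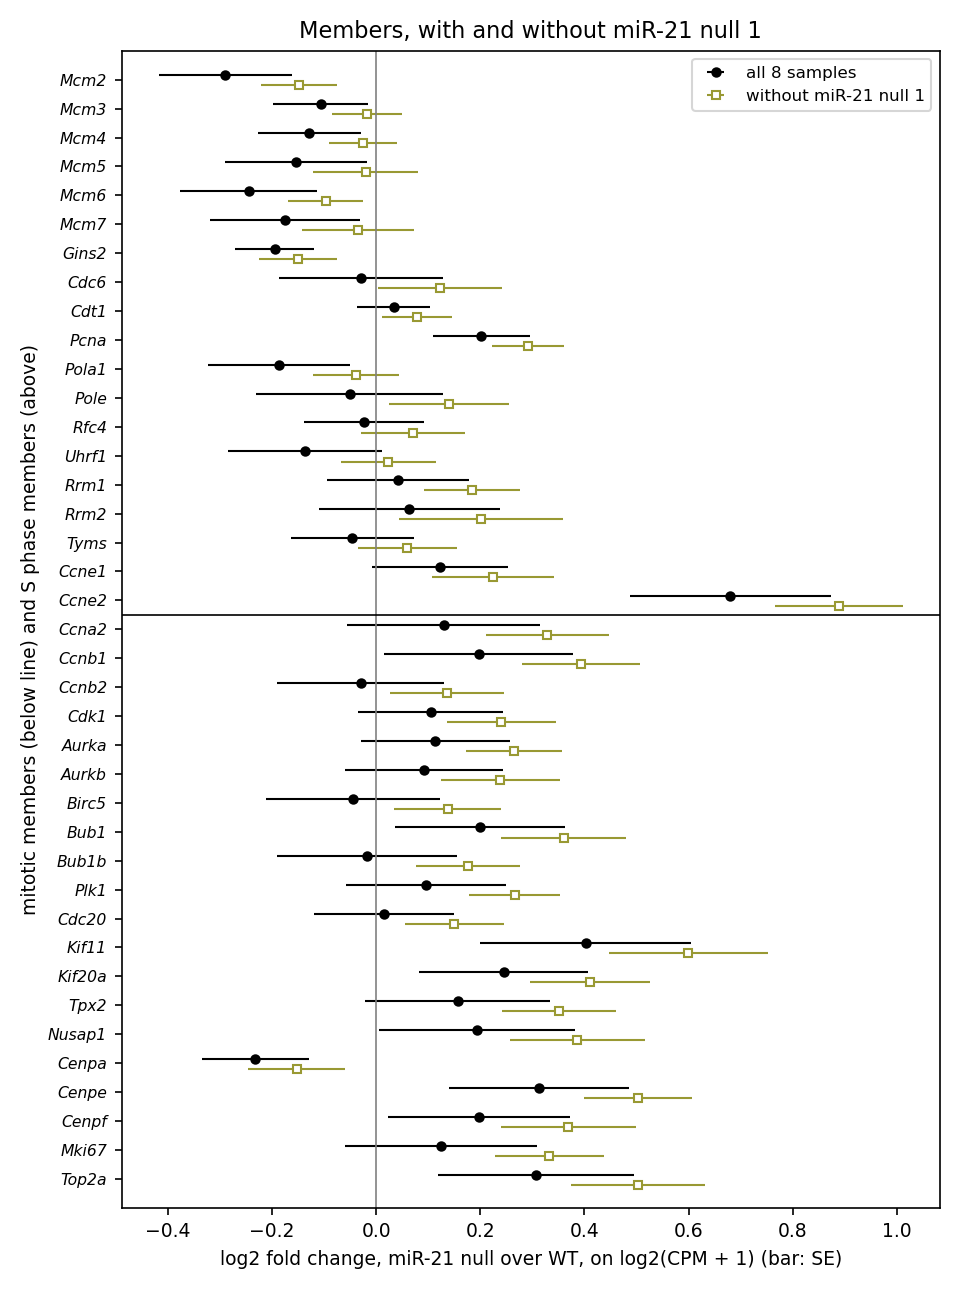
log2 fold change of each member, miR-21 null over WT (points, bars are SE), fitted on all 8 samples (filled) and without miR-21 null 1 (open), with S phase members above the line and mitotic members below it. With all samples Ccne2 is the only member called (0.68), and without miR-21 null 1 most mitotic members move to the right, to a median of 0.33.

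Genes of the same processes outside the list were counted in the fit on all 8 samples, to be read against the 9.49% of the tested genes called higher and 26.5% called lower at an adjusted p at or under 0.05. Of 47 other replication genes 1 was called higher and 3 lower, with a median log2 fold change of -0.042, and none passed the stricter threshold. Those called were Pold3, a polymerase delta subunit (0.17), and Cdca7 (-0.55), Ung, a uracil glycosylase (-0.47), and Rfc1, the large clamp loader subunit (-0.17). Tipin was highest of this list at 0.25 (adjusted p = 0.161). Of 59 other mitotic genes 2 were called higher, Psrc1 (0.76) and Lmnb1, lamin B1 (0.29), and 2 lower, Pttg1, securin (-0.37), and Hjurp, the chaperone that deposits Cenpa (-0.35), with a median of 0.11. Psrc1, a microtubule regulator, passed the stricter threshold (adjusted p = 0.00303), at 1.58 to 2.34 CPM in WT and 3.21 to 5.52 CPM in miR-21 null samples. Hjurp stood at 104, 132, 122 and 119 CPM in WT and at 87.5, 97.0, 91.9 and 95.8 CPM in miR-21 null samples, without overlap (adjusted p = 0.00455). The calls of Pold3 and Rfc1 were lost when any 1 sample was left out other than WT 4 and miR-21 null 1 for Pold3 and WT 3 for Rfc1 (adjusted p up to 0.1035 and 0.102), that of Ung without WT 2 (0.0566) and that of Lmnb1 without miR-21 null 3 (0.0578) or 4 (0.0561). Psrc1 fell short of the stricter threshold when any 1 sample was left out other than WT 1 and miR-21 null 1 (adjusted p up to 0.0101). Without miR-21 null 1 the counts were 5 higher and 2 lower for the replication genes, with a median of 0.058, and 18 higher and 2 lower for the mitotic genes, with a median of 0.29, against 9.34% higher and 22.7% lower of the tested genes in that fit. The 18 included the kinetochore genes Ndc80, Nuf2 and Spc25 and the motor Kifc1, which passed the stricter threshold at 0.92. The mitotic genes called higher were 4 without WT 4 and 1 without miR-21 null 3 or 4. Of the replication genes none was called higher without WT 1, 2 or 3 or miR-21 null 2, 3 or 4, and the number called lower ranged from 1, without WT 2, to 4, without WT 1.

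Genes that act upstream of the members, in cell-cycle entry, were counted in the same fit, beside the same shares of 9.49% called higher and 26.5% called lower among all tested genes. Of 7 G1 cyclins and kinases 3 were called higher, Ccnd1, Ccnd3 and Cdc25a, and 3 lower, Cdk4, Cdk6 and Cdk2. Ccnd1, cyclin D1, stood at 120.4, 99.0, 116 and 136 CPM in WT and at 141, 169.6, 149.9 and 157 CPM in miR-21 null samples (0.39 ± 0.09, adjusted p = 0.00992), without overlap. Cdk4, its kinase partner, stood at 85.1, 82.0, 91.3 and 82.7 CPM and at 66.5, 72.9, 75.9 and 70.7 CPM (-0.25 ± 0.06, adjusted p = 0.00785), also without overlap. Cdc25a, a phosphatase that activates Cdk2, was at 0.38 ± 0.08 (adjusted p = 0.00701), and Ccnd2 was lowest at -0.33 ± 0.21 without a call (adjusted p = 0.240). The cyclins and phosphatase that were called rose and the kinases that were called fell, but the calls of Cdk4 (adjusted p = 0.0706), Cdk6 (0.178) and Cdk2 (0.140) were lost under rescaling by the median of ratios. Leaving out 1 sample also ended the call of Ccnd3 (all but WT 4 and miR-21 null 1, up to 0.131), of Cdk6 (WT 1 or 3, miR-21 null 2, 3 or 4, up to 0.0739) and of Cdk2 (WT 2, 0.0515).

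Of 23 E2F, RB, MuvB, MYB and FOXM1 regulators 3 were called higher and 5 lower at an adjusted p at or under 0.05, shares of the list close to the 9.49% and 26.5% of all tested genes. E2f3 rose from 18.96, 18.4, 17.2 and 17.8 CPM to 24.4, 25.4, 23.0 and 24.1 CPM (0.40 ± 0.06, adjusted p = 0.000881) and E2f2 was at 0.38 ± 0.12 (adjusted p = 0.0313), whereas E2f1 fell from 27.8, 29.1, 31.7 and 31.2 CPM to 21.4, 25.2, 24.3 and 22.9 CPM (-0.34 ± 0.07, adjusted p = 0.00478). The genes of the repressive side that were called were E2f5 (-0.63, adjusted p = 0.00177), which passed the stricter threshold, and Rbl2, the pocket protein p130 of quiescent cells (-0.41, adjusted p = 0.000701). Rbl2 stood at 56.1 to 61.7 CPM in WT and 42.1 to 47.7 CPM in miR-21 null samples. The call of E2f2 was lost without WT 1, 2 or 3 or miR-21 null 2 or 4 (adjusted p up to 0.0868), and E2f5 fell short of the stricter threshold without WT 2 or 3 or miR-21 null 1, 2 or 4 (adjusted p up to 0.00713). Lin54, the MuvB subunit that binds the CHR, was called higher (0.40, adjusted p = 0.00102), and Tfdp2, an E2F partner (-0.54), and Myc (-0.49) were called lower. Foxm1, the mitotic activator, was lowest in miR-21 null 1 and highest in WT 4, at 25.1, 26.5, 26.5 and 36.8 CPM in WT and 20.6, 33.0, 30.9 and 34.9 CPM in miR-21 null samples (0.04 ± 0.17, adjusted p = 0.858).

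Of 7 CDK inhibitors 4 were tested, of which 1 was called higher and 1 lower at an adjusted p at or under 0.05. Cdkn1a, which encodes p21, an inhibitor of cyclin-Cdk2 and a target of p53, stood at 147, 97.4, 135 and 114 CPM in WT and at 196, 198, 213 and 207 CPM in miR-21 null samples. The groups did not overlap and Cdkn1a passed the stricter threshold (0.74 ± 0.11, a fold of 1.67, adjusted p = 0.000921). Cdkn1b, which encodes p27, fell from 82.9, 87.3, 80.3 and 109 CPM to 49.8, 50.7, 73.9 and 70.5 CPM (-0.56 ± 0.14, adjusted p = 0.0135). Among 15 genes of the Trp53 list, which does not include Cdkn1a, 2 were called higher, Mdm2 (0.50) and Fas (0.46), and 2 lower, Sesn1 (-1.02) and Pmaip1 (-0.52), against 9.49% and 26.5% of all tested genes. Sesn1, a p53 and FOXO target, stood at 42.8 to 66.6 CPM in WT and 26.9 to 29.2 CPM in miR-21 null samples and passed the stricter threshold (adjusted p = 0.000274). Both Cdkn1a and Sesn1 passed it when any 1 of the 8 samples was left out, whereas with no filter on low values Cdkn1a fell short of it (adjusted p = 0.00508) and Sesn1 passed (0.00193). These lists were written with earlier results of the data known, and no test of a list was made.

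**Figure D5:**
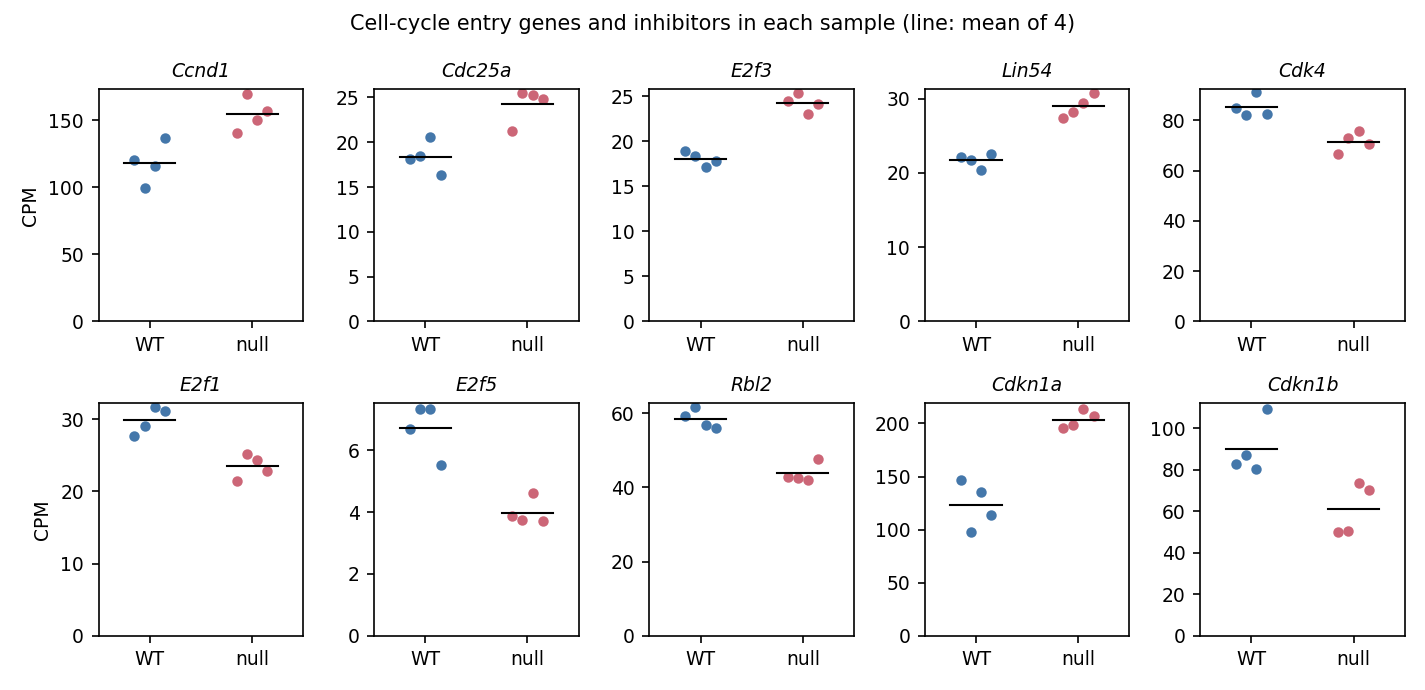
CPM of 10 genes of cell-cycle entry and its inhibition, chosen after their values were seen among those called, in each of the 4 WT and 4 miR-21 null samples (points, with the mean as a line). The 2 genotypes do not overlap in any of the 10, which depends on the choice and is not comparable with the 35.1% of all tested genes without overlap. E2f2 and Ccnd3, also called, overlap and are not shown. Cdkn1a is at 97.4 to 147 CPM in WT and 196 to 213 CPM in miR-21 null samples.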

How the data were processed

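mRNA of sorted TAMs was measured in 4 WT and 4 miR-21 null samples. Replicates were numbered within a genotype in accession order, which differs from the numbers in the miR-21 null titles. The values the authors deposited are in CPM, with an offset of 0.0001 added. The submitters' processing notes name STAR, Partek 7.0 and mm10, and the counting rule and strand are not given in the sources used here, so that overlapping genes are uncertain. A log2(CPM + 1) scale was used, on which fold changes of low genes are understated. The linear model was that of limma 3.58.1 under R 4.3.3 (eBayes with an intensity trend, Benjamini-Hochberg adjustment) over 13850 genes, kept if their mean reached 1 per 1000000 of the column totals. Limits were an adjusted p at or under 0.005 with a fold over 1.5, and an adjusted p at or under 0.05. The members and lists were chosen with earlier results of these data known. All 39 members are named, with values in every sample for those called, for Mki67, Top2a, Pcna and Mcm2 and for both extremes of each group of genes, and Gins2 was added after its values were seen. Of the other lists the genes past a limit and the highest and lowest were to be named. Depth was read from the step of the low values, and 72.4% to 73.5% of the values of up to 20 reads were whole within 0.02 of a read, so that reads were not recovered and no count test was run. The fit was tested on simulated data. The p-values set the difference between genotypes against the spread between these samples, whose mice the labels do not name. Exon lengths and 3′ UTRs came from GENCODE vM21 (GRCm38; for UTRs the principal isoform), promoters and the miRNA from RefSeq. The alternatives tried were other pseudocounts (0.1 and 10), other filters (none and 5), median-of-ratios rescaling, quantile normalization, no trend, arrayWeights, a replicate block, each sample left out, other limits and other forms of the scores. Summing rows of a symbol did not apply, with 0 duplicated symbols.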

Additional observations from a re-analysis of the deposited data

Results flagged for a closer look

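Within a genotype, the gap of the farthest sample to its neighbour was compared with the range of the 4 samples for 146 sets of values, for which chance gives about 1 in 20 beyond the limit used (Dixon's 95% value), and 12 were beyond it. Low values in miR-21 null 1 were those of Cdc6 (9.28 CPM), Rfc4 (7.61 CPM), Ccnb2 (13.1 CPM), Cenpe (33.4 CPM) and Cdc25a (21.3 CPM). High values in WT 4 were those of Mcm5 (89.3 CPM), Rrm2 (53.0 CPM), Bub1b (60.3 CPM) and Foxm1 (36.8 CPM). The other 3 were Rbl2 in miR-21 null 4 (47.7 CPM, high), Myc in WT 3 (99.1 CPM, high) and Cdk2 in WT 1 (36.1 CPM, low). Of these 12, 5 were in miR-21 null 1 and 4 in WT 4. The genes are not independent of each other, since the members moved together in both samples.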

How the results depend on the processing

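The S phase score difference lay between -0.10 and 0.092 when each sample was left out in turn and turned to 0.075 under rescaling by the median of ratios and to 0.053 under quantile normalization, and the mitotic score difference stayed above 0, from 0.041 to 0.30 without one sample and 0.24 after rescaling. The count of members past the stricter limit was 0 to 1 without one sample and 1, which was Ccne2, when the limit on the adjusted p was eased to 0.05 and that on the fold kept. The count at an adjusted p at or under 0.05, 1 as reported, was 0 with no filter on low values, 2 under rescaling by the median of ratios (Pcna and Ccne2), 4 with arrayWeights (with Kif11 and Cenpe added) and 0 to 12 without one sample, where the 12 came without miR-21 null 1. With the replicate number as a block it was 5, with Pcna, Ccne2 and Kif11 higher and Mcm2 and Cenpa lower. These numbers only name the samples in accession order and pair no mice, so the block was not used, and the correlations of the deviations of same-numbered samples were 0.083, -0.11, -0.14 and 0.22. The titles give the same number only to WT 3 and miR-21 null 2 (correlation 0.14) and to WT 4 and miR-21 null 3 (0.032), apart from the joined numbers of miR-21 null 1, and no block was fitted on them. The count of genes of the other lists past the stricter limit, 4 as reported, was 2 with a pseudocount of 10, 1 with no filter, Sesn1, and 2 to 5 without one sample (2 without WT 2, WT 3, miR-21 null 2 or miR-21 null 4).

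The sign of 8 members changed with the scaling or the weights. Under rescaling by the median of ratios Mcm3 was at 0.0044, Cdc6 at 0.075, Pole at 0.057, Rfc4 at 0.079, Tyms at 0.056, Ccnb2 at 0.077, Birc5 at 0.062 and Bub1b at 0.093. Under quantile normalization Cdc6 was at 0.094, Pole at 0.036, Rfc4 at 0.11, Tyms at 0.089, Ccnb2 at 0.081, Birc5 at 0.051 and Bub1b at 0.056. With arrayWeights Cdc6 was at 0.079, Pole at 0.074, Rfc4 at 0.044, Tyms at 0.014, Ccnb2 at 0.091, Birc5 at 0.066 and Bub1b at 0.098. Leaving out each sample gave values on both sides of 0 for Cdc6 (-0.10 to 0.12), Cdt1 (-0.010 to 0.078), Pole (-0.17 to 0.14), Rfc4 (-0.067 to 0.071), Uhrf1 (-0.23 to 0.023), Rrm1 (-0.037 to 0.18), Rrm2 (-0.045 to 0.22), Tyms (-0.14 to 0.060), Ccnb2 (-0.10 to 0.14), Aurkb (-0.018 to 0.24), Birc5 (-0.15 to 0.14), Bub1b (-0.14 to 0.18), Cdc20 (-0.062 to 0.15), Mki67 (-0.0063 to 0.33) and Foxm1 (-0.039 to 0.20). For these the cause was not tested. The other 24 members kept their sign under every alternative that was run. Every member had at least 114 reads in every sample, and the share of depth in the spread between samples was not tested.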
